A study of Mus musculus with 10 samples.

Results

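The 10 genes described here make, store, take up or break down catecholamines and acetylcholine in neurons: Th, Ddc, Dbh, Gch1, Slc18a2, Slc6a2, Maoa, Chat, Slc18a3 and Slc5a7. They were chosen by gene symbol, with earlier results of these data known, and are 10 of the 24421 genes in the count files. All 10 had an entry in the counts of each of the 10 libraries. The libraries are pools of single mouse vagal sensory neurons picked by hand, in 5 groups of 2 pools. For the Trpv1 selection, neurons came from Trpv1-tdTomato mice, in which Cre recombinase under control of the Trpv1 gene switches on the red protein tdTomato, so that a cell that once expressed Trpv1 and no longer does is also red. This selection had Trpv1+ nodose pools of 30 red neurons each, Trpv1+ jugular pools of 30 red neurons each, and Trpv1- nodose pools of 15 neurons without red each, all from 2 mice. For the capsaicin selection, neurons of C57BL/6 wild-type mice were chosen by their calcium response. Cells of the nodose pools (14 and 15) had responded to capsaicin and to the P2X agonist α,β-methylene ATP, while cells of the jugular pools (15 and 16) had responded to capsaicin alone. All neurons had been dissociated with enzymes, and jugular and nodose stand for the most rostral and the most caudal part of the fused vagal ganglion. Selection, mouse strain, sequencing core and depth went together and cannot be told apart.

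Catecholamines are made from tyrosine. Tyrosine hydroxylase (Th) makes L-DOPA and is the rate-limiting enzyme, aromatic L-amino acid decarboxylase (Ddc) turns L-DOPA into dopamine and 5-hydroxytryptophan into serotonin, and dopamine beta-hydroxylase (Dbh) turns dopamine into noradrenaline. GTP cyclohydrolase 1 (Gch1) starts the synthesis of tetrahydrobiopterin, the cofactor of Th. The vesicular monoamine transporter 2 (Slc18a2) loads the amines into vesicles, the noradrenaline transporter (Slc6a2) takes noradrenaline back up, and monoamine oxidase A (Maoa) degrades amines. A cholinergic neuron needs choline acetyltransferase (Chat), the vesicular acetylcholine transporter (Slc18a3) and the high-affinity choline transporter (Slc5a7). Vagal and spinal afferent neurons release mainly glutamate and peptides, and some of them are known to hold Th without the rest of the noradrenaline pathway.

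The total count was between 148452506 and 167704327 in the 6 pools of the Trpv1 selection and between 17666710 and 30810863 in the 4 pools of the capsaicin selection. Levels are given as CPM (normalised read counts), that is, counts over size factors of all 10 pools. A value of 3 counts, taken as the smallest that can be told from 0, stood for 0.0116 to 0.0154 CPM in pools of Trpv1-tdTomato mice and for 0.118 to 0.176 CPM in pools of capsaicin-sensitive neurons, which covers counting error only. Levels of the marker genes went with the labels. Trpv1 was at 17.8 to 248 CPM in the 8 Trpv1+ or capsaicin-sensitive pools and at 0.0334 and 0.0348 CPM in the Trpv1- pools. The summed CPM of the nodose markers P2rx2 and Hoxb5 was 295 to 958 in nodose and 0.0834 to 0.432 in jugular pools, and that of the jugular markers Prdm12, Tac1 and Gfra3 was 332 to 1304 in jugular and 0.251 to 1.25 in nodose pools. The study reported Hoxb5 and Prdm12 from these same libraries, so they are no separate check of the labels. Nor is P2rx2 in the capsaicin selection, where a P2X agonist served to choose the nodose cells. Because each pool holds RNA of few cells, many genes dropped out of 1 pool of a pair. Among genes that reached 10 CPM in either pool of a group, between 14.6% (Trpv1- nodose) and 44.3% (capsaicin-sensitive nodose) were under 1 CPM in the other pool. In pools, fewer cells with a transcript and less RNA per cell cannot be told apart.

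The promoters of Th, Slc18a2 and Dbh are shown because Th and Slc18a2 were highest in the same pools and Dbh was found in another group, as described below. Sequences are from RefSeq on GRCm38.p6 and are windows of 300 bases that lie mostly before the start annotated by RefSeq, and 9 of the 10 genes matched, all except Slc6a2. Capitals mark the full cAMP response element, TGACGTCA, a palindrome. It was found in 1.79% of all 32851 such windows, among them those of Th and Slc18a2. In Th (chr7:142899946-142900245, minus strand) its first base lies 45 bases before the start. In Slc18a2 (chr19:59260628-59260927, plus strand) its first base lies 4 bases before the start, so it runs across the start. The Dbh window (chr2:27165257-27165556, plus strand) has no full element.
Th: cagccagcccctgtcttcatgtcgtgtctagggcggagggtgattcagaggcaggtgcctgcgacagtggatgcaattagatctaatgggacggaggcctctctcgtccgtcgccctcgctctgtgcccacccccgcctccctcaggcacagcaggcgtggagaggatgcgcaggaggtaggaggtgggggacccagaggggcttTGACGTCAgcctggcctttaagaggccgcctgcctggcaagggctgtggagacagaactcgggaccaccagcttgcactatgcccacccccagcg
Slc18a2: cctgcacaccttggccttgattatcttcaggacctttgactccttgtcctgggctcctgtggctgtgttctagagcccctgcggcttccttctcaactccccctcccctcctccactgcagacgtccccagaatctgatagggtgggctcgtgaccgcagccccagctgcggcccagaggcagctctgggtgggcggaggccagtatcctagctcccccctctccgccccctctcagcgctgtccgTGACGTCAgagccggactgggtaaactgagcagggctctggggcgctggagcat
Dbh: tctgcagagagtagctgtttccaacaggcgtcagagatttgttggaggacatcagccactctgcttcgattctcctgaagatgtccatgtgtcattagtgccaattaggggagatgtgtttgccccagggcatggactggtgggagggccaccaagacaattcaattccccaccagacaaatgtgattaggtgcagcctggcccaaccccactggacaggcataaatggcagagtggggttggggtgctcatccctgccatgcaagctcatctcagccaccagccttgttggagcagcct
The shorter letters TGACG, which lie within the full element, were found on either strand in 7 of the 9 genes with a window and in 20.8% of all windows. The homeodomain core ATTA was found in Th, Ddc, Dbh, Slc18a2 and Slc18a3 and in 58% of all windows, the palindrome TAATTA in none of the 9 and in 5.29% of all windows, and the AP-1 letters TGACTCA in none of the 9 and in 5.2% of all windows. TATAAA was found in Ddc, Gch1 and Slc5a7 and in 13.6% of all windows. CAGCTG (Chat and Slc18a2), GGGCGG (Th, Slc18a2, Slc18a3, Gch1 and Maoa) and CAGCACC (Gch1) were found in 16.3%, 35.7% and 7.14% of all windows, and GCGTGGGCG in no window of the 9 and in 0.612% of all. The GENCODE spans given below for Th and Dbh begin further upstream than these RefSeq starts, so the windows lie within those spans. A match describes the letters of the window and not a bound factor.

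The groups held different parts of the pathways. Th was at 35.5 CPM or more in 8 pools and nearly absent from the capsaicin-sensitive jugular pools. Ddc was found in nodose neurons of the Trpv1 selection, Dbh in Trpv1- nodose neurons, and Slc18a2 was highest in capsaicin-sensitive nodose neurons. Trpv1- nodose pools were the ones in which Th, Ddc, Dbh, Gch1, Slc18a2 and Maoa were all at 10 CPM or more in both pools. No pool held Chat, Slc18a3 and Slc5a7 together at 10 CPM or more, since Chat was at most 0.643 CPM in every pool. The number of the 10 genes at 10 CPM or more was 5 and 4 in Trpv1+ nodose, 3 and 2 in Trpv1+ jugular, 6 and 6 in Trpv1- nodose, 4 and 3 in capsaicin-sensitive nodose and 3 and 2 in capsaicin-sensitive jugular pools.

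**Figure D1:**
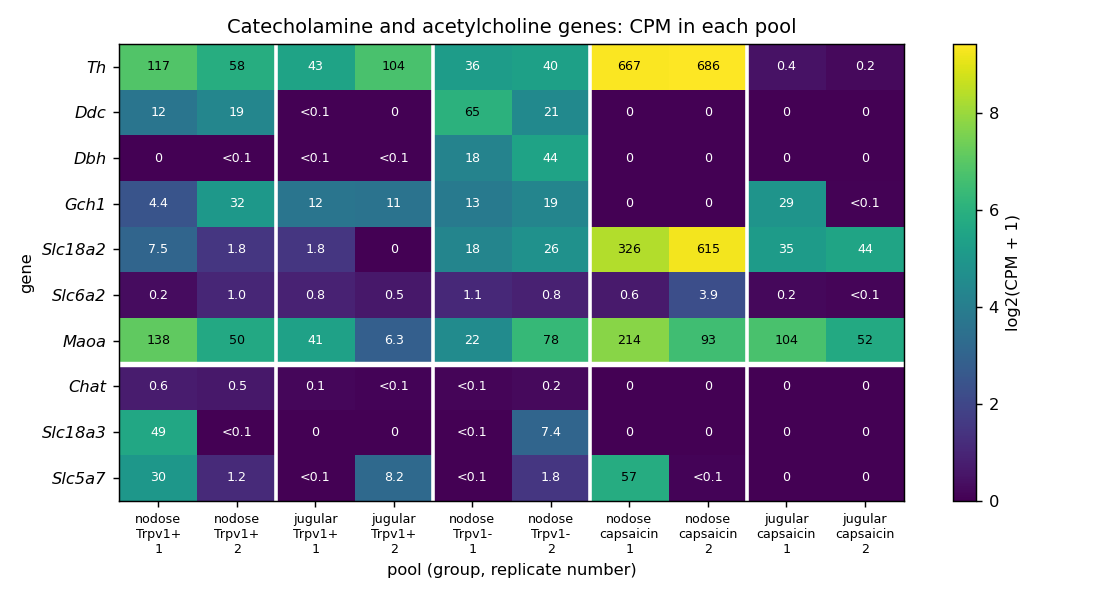
CPM of the 10 genes (vertical axis) in each of the 10 pools (horizontal axis, group and replicate number), coloured by log2(CPM + 1) with the CPM written in each cell. The upper 7 genes belong to catecholamine synthesis, transport and breakdown and the lower 3 to acetylcholine; Th and Slc18a2 are brightest in the capsaicin-sensitive nodose pools, and Dbh reaches 18 and 44 CPM in the Trpv1- nodose pools alone.

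Th (chr7:142892752-142931128, minus strand, GENCODE vM21 on GRCm38) was at 667 and 686 CPM in the capsaicin-sensitive nodose pools, a mean of 676.8 ± 13.2 (SD, n = 2). In the capsaicin-sensitive jugular pools it was at 0.392 and 0.167 CPM, from 10 and 4 counts. The Trpv1+ nodose pools had 117 and 58.1 CPM and the Trpv1+ jugular pools 43.5 and 104 CPM, and these groups overlapped. The Trpv1- nodose pools had 35.5 and 40.1 CPM, below every Trpv1+ pool. Between Trpv1+ and Trpv1- nodose pools, 40.7% of all genes tested had no overlap, in one direction or the other. In the order of the group means, capsaicin-sensitive nodose was first and capsaicin-sensitive jugular last, and of neighbours in this order only the Trpv1+ nodose and Trpv1+ jugular groups overlapped. For the other neighbours the share of all genes without overlap was not computed.

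For Th, summed over the pools, the ratio of capsaicin-sensitive nodose to jugular was 2390, with a 95% counting interval of 1420 to 4360 that does not cover the spread between pools. Scaled by total counts instead of size factors it was 1480. The fitted log2 fold change was 10.88 ± 1.03 (SE, edgeR's quasi-likelihood test). The Benjamini-Hochberg adjusted p over the 8181 genes tested was 0.155 in edgeR, above the threshold of 0.1, and Th was therefore not called. DESeq2, run as an alternative, gave an adjusted p of 6.139e-05 and called it. Under edgeR Th was called in 6 of the 11 other settings tried, and its adjusted p was 1.385e-09 without a filter on low counts, 0.00415 with all 10 pools in 1 fit and at most 0.166 in any setting. Among these settings, CPM within the comparison and no CPM threshold reused the main fit, so the adjusted p of Th could not change there. In the Trpv1 selection the log2 fold change of Th, nodose over jugular, was 0.23 ± 0.75 with an adjusted p of 0.976 (edgeR). The difference between the selections was tested as an interaction of ganglion and selection: it was -10.57 ± 1.32 on the log2 scale, with an adjusted p of 0.103 in edgeR and of 3.937e-10 in DESeq2. Th was lower in the capsaicin-sensitive than in the Trpv1+ jugular pools and higher in the capsaicin-sensitive than in the Trpv1+ nodose pools, without overlap in either. The share of all genes without overlap between selections was not computed.

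Ddc (chr11:11814101-11898144, minus strand) was at 64.8 and 21.3 CPM in the Trpv1- nodose pools and at 11.6 and 19 CPM in the Trpv1+ nodose pools. The Trpv1+ jugular pools had 2 and 0 counts, and all 4 capsaicin-sensitive pools had 0 counts. In the capsaicin-sensitive pools 3 counts stand for 0.118 to 0.176 CPM, which does not cover the loss of transcripts from few cells. They had a count for 7889 to 10010 genes, against 12153 to 13029 in pools of the Trpv1 selection. The nodose pools of the Trpv1 selection thus lay above every other pool, and between selections the share of all genes without overlap was not computed. The Trpv1- pools lay above the Trpv1+ nodose pools without overlap. Between these groups 40.7% of all genes tested had no overlap in one direction or the other (42.1% in the Trpv1 and in the capsaicin selection, nodose against jugular). Between Trpv1+ nodose and Trpv1+ jugular pools the ratio of Ddc was 3690, with a counting interval of 1020 to 30500. The log2 fold change of Ddc was 11.63 ± 3.40 with an adjusted p of 0.321 in edgeR, and DESeq2 gave an adjusted p of 5.625e-07. Between Trpv1+ and Trpv1- nodose pools it was -1.48 ± 1.24, with an adjusted p of 0.835 (edgeR).

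Dbh (chr2:27165233-27183200, plus strand) was at 17.6 and 43.6 CPM in the Trpv1- nodose pools, from 4568 and 10462 counts. The Trpv1+ nodose pools had 0 and 5 counts, the Trpv1+ jugular pools 2 and 2 counts, and the capsaicin-sensitive pools 0 counts. For the capsaicin-sensitive pools the limits given for Ddc hold here too. The Trpv1- pools had a 2400-fold higher level of Dbh than the Trpv1+ nodose pools, with a counting interval of 1030 to 7400. The log2 fold change of Dbh, Trpv1+ over Trpv1- nodose, was -11.16 ± 3.11 with an adjusted p of 0.366 in edgeR over 11386 genes, and DESeq2 gave an adjusted p of 4.18e-06. The Trpv1- pools held 15 cells each against 30 cells in the Trpv1+ pools, at like depths.

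Markers of other cells that make noradrenaline were read beside Dbh, and their part in its level was not tested. Of the sympathetic neuron markers Npy, Hand1, Hand2, Gata2 and Gata3, none had a count in either Trpv1- pool. Pnmt, the enzyme that makes adrenaline and marks chromaffin cells, had 1 count in the Trpv1- pools together. The summed level of the chromaffin and glomus-type list (Pnmt, Chga, Chgb, Epas1 and Cox4i2) was 181 to 218 CPM in the Trpv1- pools and 12.6 to 126 CPM in the others. Chga, Chgb and Epas1 made up nearly all of it in the Trpv1- pools. Epas1, at 19.9 and 30.9 CPM in the Trpv1- pools, was at most 7.2 CPM elsewhere. Chga was at 176.7 and 125.3 CPM there and at most 116.5 CPM elsewhere. Chgb was at 21.8 and 24.9 CPM in the Trpv1- pools, below the 75.2 and 40.4 CPM of the capsaicin-sensitive nodose pools. Cox4i2 had 2 and 1 counts in the Trpv1- pools and reached 4.56 CPM in one Trpv1+ nodose and 2.94 CPM in one Trpv1+ jugular pool. Of the 4 markers of satellite glia and Schwann cells, Sox10 was at 10.2 and 2.24 CPM in the Trpv1- pools and at most 0.176 CPM in the others. The sum of the 4 (Fabp7, Sox10, S100b and Apoe) was 2742 and 3067 CPM in the Trpv1- pools, below the 3206 and 3215 CPM of the Trpv1+ nodose pools.

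Gch1 (chr14:47153895-47189413, minus strand) was at 4.41 and 31.7 CPM in Trpv1+ nodose, 11.6 and 10.9 CPM in Trpv1+ jugular, and 13.4 and 18.8 CPM in Trpv1- nodose pools. The Trpv1+ nodose values spanned those of both other groups, and the Trpv1- nodose pools lay above the Trpv1+ jugular pools. For the latter pair the share of all genes without overlap was not computed. In the capsaicin selection it was at 28.7 CPM in one jugular pool and at 1 count in the other, and had 0 counts in both nodose pools. The pools with the highest Th therefore had no count of the gene for the first enzyme of the cofactor's synthesis, at a floor of 0.125 and 0.176 CPM. That floor covers counting error and not the loss of transcripts from few cells. These pools had a count for 8462 and 7889 genes, against 12153 to 13029 genes in pools of the Trpv1 selection. Summed over the pools, the jugular level of Gch1 was at least 101-fold higher than 3 counts per nodose pool, and it rests on 1 pool. The log2 fold change of Gch1 was 0.69 ± 1.80 in the Trpv1 selection and 0.21 ± 1.66 between Trpv1+ and Trpv1- nodose pools, with adjusted p of 0.968 and 0.995 (edgeR).

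Slc18a2 (chr19:59260896-59296012, plus strand) was at 326 and 615 CPM in capsaicin-sensitive nodose and at 34.8 and 44 CPM in capsaicin-sensitive jugular pools. It was at 18.3 and 26.3 CPM in Trpv1- nodose, 7.5 and 1.82 CPM in Trpv1+ nodose, and 1.79 CPM and 0 counts in Trpv1+ jugular pools. No neighbours in this order of groups overlapped. Between neighbours of the same selection, 40.7% to 42.1% of all genes tested had no overlap, and between selections this share was not computed. Summed over the pools, the capsaicin-sensitive nodose level was 11.4 times the jugular level with size factors and 7.07 times with total counts as the scale. The log2 fold change of Slc18a2 was 3.17 ± 0.76 with an adjusted p of 0.352 (edgeR). DESeq2 gave an adjusted p of 0.393. In the Trpv1 selection the log2 fold change was 2.37 ± 3.23 with an adjusted p of 0.922, and Trpv1+ over Trpv1- nodose was -2.23 ± 1.75 with an adjusted p of 0.808 (both edgeR). An antisense gene, Gm29261, shares 2.1% of the exon bases of Slc18a2. The kit does not mark strand, so reads in this stretch cannot be assigned to one of them.

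**Figure D2:**
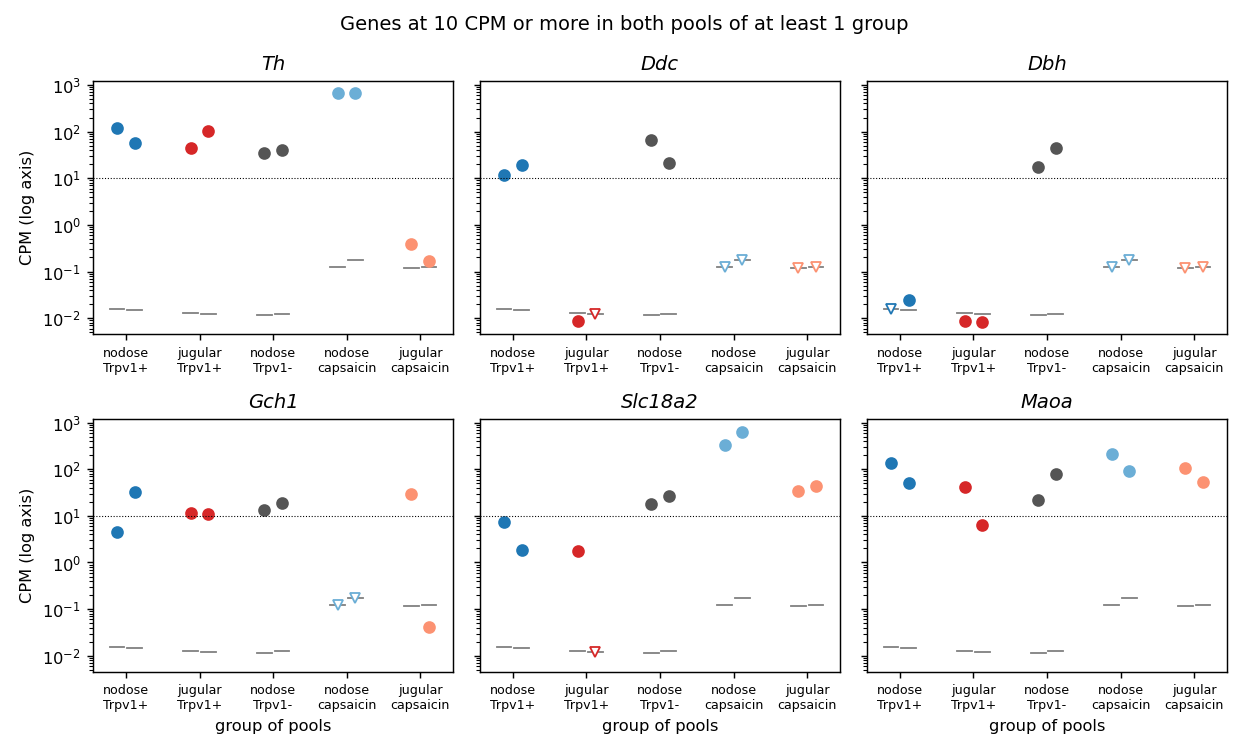
CPM on a log axis of the 6 genes that reached 10 CPM (dotted line) in both pools of at least 1 group, with 1 point per pool and the 5 groups on the horizontal axis. Grey dashes mark the CPM of 3 counts in each pool and open triangles, drawn at the dash, mark pools with 0 counts; the capsaicin-sensitive nodose pools lie at 667 and 686 CPM for Th and show 0 counts of Ddc, Dbh and Gch1.

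Slc6a2 (chr8:92960079-93001667, plus strand) was low in every pool, with 3.86 CPM in one capsaicin-sensitive nodose pool and 0.0834 to 1.12 CPM in the other 9. Maoa (chrX:16619698-16687818, plus strand) was found in every pool. It was at 214 and 92.7 CPM in capsaicin-sensitive nodose, 138 and 50.1 CPM in Trpv1+ nodose, 104 and 52.4 CPM in capsaicin-sensitive jugular, 22.3 and 78.3 CPM in Trpv1- nodose and 41.1 and 6.29 CPM in Trpv1+ jugular pools. Each group overlapped with the next one in the order of means. The log2 fold changes of Maoa were 1.98 ± 1.19 in the Trpv1 selection, 0.71 ± 1.08 in the capsaicin selection and 0.94 ± 0.90 between Trpv1+ and Trpv1- nodose pools, and the adjusted p was 0.695, 0.9999 and 0.866 (edgeR).

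Chat (chr14:32408203-32465989, minus strand) had 125 and 105 counts in the Trpv1+ nodose pools, that is 0.643 and 0.515 CPM. It was at 0.0687 to 0.184 CPM in the Trpv1+ jugular and Trpv1- nodose pools and had 0 counts in the 4 capsaicin-sensitive pools, where 3 counts stand for 0.118 to 0.176 CPM. Slc18a3 (chr14:32462438-32464850, minus strand) lies within the span of Chat, on the same strand, and shares no exon base with it. It was at 48.8 CPM in one Trpv1+ nodose pool, from 9485 counts, and at 3 counts in the other. It was at 7.38 CPM in one Trpv1- nodose pool and at 2 counts in the other, and had 0 counts in all jugular and all capsaicin-sensitive pools. Summed over the pools, the Trpv1+ nodose level of Slc18a3 was at least 1910-fold higher than 3 counts per Trpv1+ jugular pool, and it comes from 1 pool. Among all genes that reached 10 CPM in a Trpv1+ nodose pool, 22.5% were under 1 CPM in the other.

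Slc5a7 (chr17:54273590-54299034, minus strand) was also uneven within groups. It was at 30.4 and 1.18 CPM in Trpv1+ nodose pools, the higher value in the pool that held Slc18a3. It was at 56.5 CPM and 1 count in capsaicin-sensitive nodose, 1 count and 8.24 CPM in Trpv1+ jugular, and 6 counts and 1.78 CPM in Trpv1- nodose pools, and had 0 counts in both capsaicin-sensitive jugular pools. The higher Trpv1- pool was again the one that held Slc18a3. All groups except capsaicin-sensitive jugular overlapped with their neighbours in the order of means. The log2 fold change of Slc5a7 was 1.91 ± 3.18 in the Trpv1 selection and 4.18 ± 3.01 between Trpv1+ and Trpv1- nodose pools, with adjusted p of 0.938 and 0.779 (edgeR). Among all genes that reached 10 CPM in a capsaicin-sensitive nodose pool, 44.3% were under 1 CPM in the other, as Slc5a7 was.

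A difference was called where the adjusted p did not exceed 0.1, the fold was 2 or more and both pools of a group reached 10 CPM. With edgeR, 0 of the 8 genes tested were called between nodose and jugular in the Trpv1 selection (1 at an unadjusted p under 0.05, Ddc), against 0.318% of all genes tested. In the capsaicin selection 0 of 4 were called (2 at an unadjusted p under 0.05, Th and Slc18a2), against 0% of all genes. Between Trpv1+ and Trpv1- nodose pools 0 of 10 were called (1 at an unadjusted p under 0.05, Dbh), against 0.0527% of all genes. Across both selections, with selection as a covariate, 0 of 8 were called (0 at an unadjusted p under 0.05), against 0.577% of all genes. For the interaction 0 of 8 passed an adjusted p of 0.1 (2 at an unadjusted p under 0.05, Th and Gch1), against 0% of all genes. DESeq2 called Ddc, Th, Dbh and Th in the first 4 of these, and Gch1, Slc18a3, Slc5a7 and Th in the interaction. The share of all genes tested that DESeq2 called was 3.46%, 6.83%, 2.26% and 8.38% in these 4 and 19.7% in the interaction. None of the 10 genes was called by both tools in these fits. Of all genes tested with edgeR, 1305 of 10990 had an unadjusted p under 0.05 in the Trpv1 selection. In the capsaicin selection it was 1150 of 8181, and between Trpv1+ and Trpv1- nodose pools 1264 of 11386. It was 1333 of 11959 across both selections and 1233 of 11959 for the interaction.

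**Figure D3:**
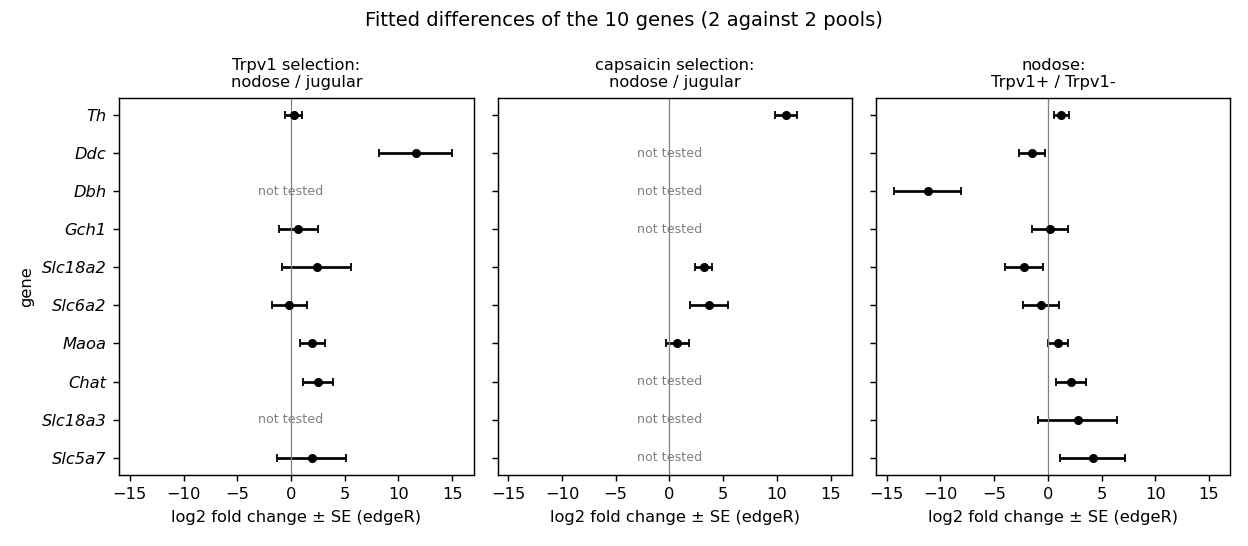
Log2 fold change with its SE (horizontal axis, edgeR) of each of the 10 genes (vertical axis) in the 3 comparisons of 2 against 2 pools, where genes removed by the filter on low counts are marked as not tested. Th at 10.88 in the capsaicin selection stands against 0.23 in the Trpv1 selection, and Ddc at 11.63 and Dbh at -11.16 have SEs over 3.

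Across both selections, the log2 fold change of nodose over jugular was 10.98 ± 4.73 for Ddc, 5.499 ± 3.16 for Th, 2.80 ± 1.40 for Slc18a2 and 1.37 ± 0.92 for Maoa, and the adjusted p was 0.452, 0.639, 0.523 and 0.761 (edgeR). For Th, DESeq2 gave an adjusted p of 0.00775 in this fit, and without either capsaicin-sensitive jugular pool the edgeR log2 fold change fell to 1.81 or 1.90.

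Levels of different genes were compared per kilobase of the union of exons. In the capsaicin-sensitive nodose pools Th was at 282 to 290 CPM per kb, Slc18a2 at 62.4 to 118 and Maoa at 22.2 to 51.5 CPM per kb. In the Trpv1- nodose pools the catecholamine enzymes were closer together, with Th at 15 to 17 CPM per kb, Dbh at 6.56 to 16.2, Ddc at 4.78 to 14.5 and Gch1 at 2.15 to 3 CPM per kb. Th was thus the highest of the 4 enzyme genes per length, with a range that overlapped that of Dbh.

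Among the other genes of monoamine metabolism, 9 of 17 were at 10 CPM or more in both pools of a group: Maob, Qdpr, Pcbd1, Pcbd2, Pts, Spr, Gchfr, Cyb561 and Aldh2. Maob, the second monoamine oxidase, was at 174 and 204 CPM in capsaicin-sensitive nodose, 19.3 and 10.4 CPM in Trpv1+ nodose, 57.5 and 6.96 CPM in Trpv1- nodose, and at most 0.157 CPM in the 4 jugular pools. Across both selections Maob was higher in nodose, with a log2 fold change of 10.24 ± 1.65 and an adjusted p of 0.0262 (edgeR), the 1 gene of 9 tested in the list that was called. The interaction of Maob was -0.62 ± 2.67 with an adjusted p of 0.9998 (edgeR). Maoa was found in the jugular pools of both selections. Across both selections DESeq2 called Cyb561, Maob and Pcbd1 of the list, against 8.38% of all genes. Cyb561 was at 42.1 and 7.84 CPM in Trpv1+ jugular and 188 and 56.1 CPM in capsaicin-sensitive jugular pools. It was at 0.0103 and 0.0147 CPM in Trpv1+ nodose, 71.4 and 0.176 CPM in capsaicin-sensitive nodose and 0.549 and 21.1 CPM in Trpv1- nodose pools.

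Other genes that make and recycle tetrahydrobiopterin differed in how widely they were found. Qdpr (dihydropteridine reductase), Pts (6-pyruvoyltetrahydropterin synthase) and Spr (sepiapterin reductase) were in all 10 pools, at 112 to 333, 17.3 to 314 and 17.8 to 188 CPM. Pcbd2 was at 3.91 to 81.2 CPM in the 6 pools of the Trpv1 selection and had 0 counts in the 4 capsaicin-sensitive pools. Pcbd1 was at 53.7 to 313 CPM in nodose and 5.02 to 75.5 CPM in jugular pools. Across both selections its log2 fold change was 2.80 ± 0.73, with an adjusted p of 0.237 in edgeR and of 9.279e-04 in DESeq2. Gchfr, the feedback regulator of Gch1, was at 20.7 and 12.1 CPM in Trpv1- nodose, at 5.92 CPM in one capsaicin-sensitive nodose pool and at 3 counts or fewer in the others. Its log2 fold change, Trpv1+ over Trpv1- nodose, was -12.35 ± 3.23 with an adjusted p of 0.366 in edgeR and of 6.065e-07 in DESeq2. Of the other amine markers, Slc6a3 (the dopamine transporter) had 0 counts in every pool, and Tph1 (tryptophan hydroxylase) reached 67.4 CPM in one capsaicin-sensitive jugular pool and at most 0.167 CPM in the others.

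The monoamine list had a median log2 fold change of 0.26 in the Trpv1 selection (8 tested, 0 called, 3 at an unadjusted p under 0.05), 1.11 in the capsaicin selection (7 tested, 0 called, 1 at an unadjusted p under 0.05) and 0.64 between Trpv1+ and Trpv1- nodose pools (9 tested, 0 called, 3 at an unadjusted p under 0.05), all in edgeR. The medians over all genes tested were 0.03, -0.02 and 0.01. In the same order, 1305 of 10990, 1150 of 8181 and 1264 of 11386 of all genes tested had an unadjusted p under 0.05 (edgeR). DESeq2 called 1 gene of the list in each, Maob, Maob and Gchfr.

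In the acetylcholine list, 7 of 16 genes were at 10 CPM or more in both pools of a group: Ache, Colq, Slc44a1, Slc44a2, Chka, Acly and Slc25a1. Acetylcholinesterase, Ache, was at 145 to 245 CPM in all 6 nodose pools, at 95.8 and 38.6 CPM in the Trpv1+ jugular pools, and at 1 count in each capsaicin-sensitive jugular pool. Its log2 fold change was 11.33 ± 2.01 with an adjusted p of 0.352 in the capsaicin selection and 1.64 ± 0.59 with an adjusted p of 0.377 in the Trpv1 selection, and its interaction was -9.80 ± 1.55 with an adjusted p of 0.227 (all edgeR). DESeq2 called Ache in the capsaicin selection, with an adjusted p of 1.148e-04. Like Th, Ache was near 0 in the capsaicin-sensitive jugular pools and present in the Trpv1+ jugular pools. Colq, the collagen tail of acetylcholinesterase, was at 57.1 and 73.2 CPM in Trpv1- nodose and at most 0.0392 CPM in the 4 jugular pools. In the other nodose pools Colq was at 1.99 and 31.5 CPM (Trpv1+) and at 15.9 and 0.29 CPM (capsaicin-sensitive). Slc44a1 was at 103.6 and 119.6 CPM in Trpv1+ jugular and at 5.99 and 16.74 CPM in Trpv1+ nodose pools. In the capsaicin selection Slc44a1 was at 26.13 and 45.65 CPM in jugular and at 53.61 and 0.0585 CPM in nodose pools. Acly, which makes the acetyl-CoA of the cytosol, was at 219 to 992 CPM in all 10 pools. With edgeR, 0 of 9, 0 of 6 and 0 of 10 genes of the list were called in the Trpv1 selection, the capsaicin selection and between Trpv1+ and Trpv1- nodose pools (5, 1 and 1 at an unadjusted p under 0.05), with medians of 1.02, -0.69 and -0.11. Over all genes tested, 1305 of 10990, 1150 of 8181 and 1264 of 11386 had an unadjusted p under 0.05.

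**Figure D4:**
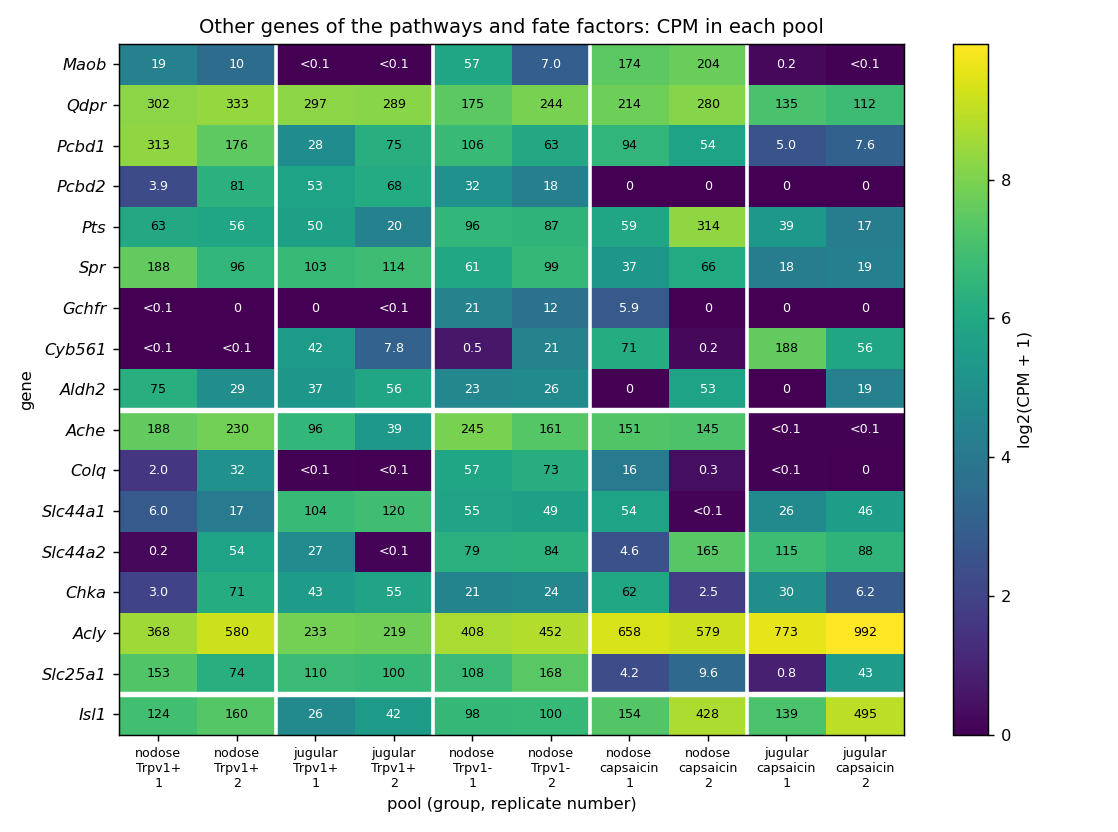
CPM in each of the 10 pools (horizontal axis) of the genes of the monoamine list, the acetylcholine list and the fate factor list (vertical axis, upper, middle and lower block) that reached 10 CPM in both pools of a group, coloured by log2(CPM + 1) with the CPM written in each cell. Maob is at most 0.157 CPM in the 4 jugular pools, Ache is at 1 count in the capsaicin-sensitive jugular pools, and Gchfr is above 10 CPM only in the Trpv1- nodose pools.

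Of 19 adrenergic, dopamine and muscarinic receptor genes, 0 were at 10 CPM or more in both pools of a group, and their summed level was 0 to 35.4 CPM per pool. Single pools reached 33.3 CPM of Adra2a (Trpv1- nodose), 28.4 CPM of Adra2b (capsaicin-sensitive jugular) and 25.5 CPM of Chrm1 (Trpv1+ jugular), named after their values were seen. In edgeR 4 of them were tested in the Trpv1 selection, 0 in the capsaicin selection and 4 between Trpv1+ and Trpv1- nodose pools, with 0 called and 0 at an unadjusted p under 0.05, and DESeq2 called 0.

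Of 11 transcription factors known for autonomic and catecholamine fate, Isl1, which sensory and sympathetic neurons share, was the 1 at 10 CPM or more in both pools of a group, at 97.8 to 428 CPM in nodose and 26.3 to 495 CPM in jugular pools. In the Trpv1 selection Isl1 had a log2 fold change of 2.05 ± 0.61 with an adjusted p of 0.321 (edgeR). Of these factors, edgeR tested 3 in the Trpv1 selection, 2 in the capsaicin selection and 4 between Trpv1+ and Trpv1- nodose pools, with 0 called (1, 0 and 0 at an unadjusted p under 0.05), and DESeq2 called 0. For this list and the receptor list, the counts over all genes are those given for the acetylcholine list. Phox2a, a factor that is known to act on Dbh, was at 14.1 CPM in one Trpv1+ and at 12 CPM in one Trpv1- nodose pool and at 1 count or fewer elsewhere. Hand1, Hand2 and Gata2 had 0 counts in every pool, and Gata3 was at 47.6 CPM in one capsaicin-sensitive nodose pool and at most 2.55 CPM in the others.

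In the dorsal root ganglion, Th marks low-threshold C-fiber mechanoreceptors, and the markers of those cells were read beside it. Slc17a8 was at most 2.14 CPM in every pool, Fam19a4 was at 21.1 CPM in one capsaicin-sensitive jugular pool and at most 2.68 CPM elsewhere, and Gfra2 was at 0.0834 and 1.58 CPM in the capsaicin-sensitive nodose pools, where Th was highest. In the 6 pools of the Trpv1 selection, which also held Th, Gfra2 was at 40.4 to 127 CPM, and in the capsaicin-sensitive jugular pools, where Th was lowest, at 11.4 and 145 CPM. The macrophage markers Ptprc, Csf1r, Aif1 and C1qa and the mast cell genes Cpa3, Cma1 and Tpsb2 had 0 counts in every pool. Kit, the other mast cell marker of that list, brought its sum to 47.7 CPM in one Trpv1+ jugular pool, and the endothelial markers Pecam1, Cldn5 and Kdr summed to at most 23 CPM. The sensory neuron list (Avil, Isl1, Pou4f1, Prph, Scn9a, Slc17a6 and Trpv1) summed to 2295 to 4891 CPM. Transcripts of the list for satellite glia and Schwann cells (Fabp7, Sox10, S100b and Apoe) were found in all groups. Their sum per pool ranged from 2639 to 3666 CPM where mice carried tdTomato. Pools chosen by capsaicin response had sums of 348 to 834. Sox10 had 0 counts in the capsaicin-sensitive pools and at most 0.1765 CPM in the Trpv1+ pools, so those sums rested on Fabp7, S100b and Apoe. Whether they stand for glial RNA, and what part such RNA had in the levels above, was not tested.

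The genes whose log2(CPM + 1) followed each gene most closely over the 10 pools were found among 7503 genes. For Th they were Tnfrsf12a, Cyb5r1 and Ptgir, with Pearson's r of 0.943, 0.934 and 0.933, and Ptgir, the prostacyclin receptor, was at 297 and 426 CPM in the capsaicin-sensitive nodose pools and at 3 counts in each capsaicin-sensitive jugular pool. For Ddc they were Anxa4, Gm9199 and Chd5 (0.981, 0.969 and 0.962), at 8.32 to 108 CPM in the 4 nodose pools of the Trpv1 selection. For Dbh, Gpr65 and Zfp574 had r of 0.998 and Cacng5 was closer still, each found in the Trpv1- pools and nearly absent elsewhere, so that such an r rests on 2 pools. For Slc18a2 they were 9530082P21Rik, Sdha and Mir22hg (0.974, 0.964 and 0.961), for Gch1 Pofut2, Coasy and Galk2 (0.951, 0.945 and 0.941) and for Maoa Bhlhe40, Lin7a and Rgs17 (0.912, 0.896 and 0.892). The 10 pools share groups, depths and cores, so these values describe likeness of pattern only. Among the 10 genes themselves, the highest r were 0.704 for Ddc with Dbh, 0.687 for Chat with Slc18a3 and 0.674 for Slc18a2 with Maoa, and Th with Slc18a2 had r of 0.201.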

How the data were processed

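RNA of 10 pools of hand-picked vagal neurons was turned into cDNA by an ultra-low input kit (oligo-dT priming, strand not marked), amplified and sequenced in paired ends. Base calls came from CASAVA 1.8.2. Alignment by the authors used TopHat2 2.0.9 and Bowtie2 2.1.0.0 on mm10. Reads were counted with HTSeq, and the files deposited hold these raw counts for each gene symbol, not normalized. The annotation and strand setting of the counting are not given in the sources used here. Sample labels gave groups and replicate numbers, and the methods of the study gave the cells per pool. Which mouse each pool came from is not stated, so p-values measure the spread between pools, which may be in part technical. Replicate pools were checked for double deposit, and each pair differed by 513 to 3040 times the sampling variance (chi-square per degree of freedom).

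CPM was computed as counts over DESeq2 size factors of all 10 pools, scaled by the geometric mean of the totals. Each comparison was fitted on all genes of its own 4 pools with the quasi-likelihood test of edgeR 4.0.16 (TMM, filterByExpr) in R 4.3.3, two-sided, with Benjamini-Hochberg adjustment. A call needed an adjusted p no higher than 0.1, a fold of 2 or more and 10 CPM or more in both pools of a group. A fit to the 8 nodose and jugular pools of both selections took selection as a covariate, and another added the interaction. SEs were obtained by dividing the absolute log2 fold change by the root of F. A fold against a group at 0 was computed against 3 counts per pool, and counting intervals are exact at 95%. Alternatives were DESeq2 1.42.0, its size factors in edgeR, no filter on low counts, no Rn45s (a ribosomal RNA gene with 10.3% and 8.54% of counts in the Trpv1+ nodose pools and at most 3.38% in the others), all 10 pools in 1 fit, CPM within the comparison, no CPM threshold, a replicate block, leaving out each pool, and plain CPM. The scripts were tested on simulated data. The 10 genes, the gene lists and the rule for named genes (all 10 genes, list genes at 10 CPM in both pools of a group, and the 3 genes closest in pattern) were chosen with earlier results of these data known. Other genes are named as markers, as genes at 0 or for a level in 1 pool, chosen after their values were seen. A few genes of the lists are not reported here, and list counts, medians and sums leave them out. Gene positions and exon lengths are from GENCODE vM21 on GRCm38, and promoter sequences from RefSeq on GRCm38.p6. Tables and figures were made in Python 3.11.15.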

Additional observations from a re-analysis of the deposited data

How the results depend on the processing

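The number of called genes depended on the tool, the filter and the pools more than on scaling. In the order Trpv1 selection, capsaicin selection, Trpv1+ over Trpv1- nodose, and both selections, edgeR called 35, 0, 6 and 69 genes, DESeq2 called 459, 734, 320 and 1154, and edgeR without a filter on low counts called 59, 122, 10 and 222. With all 10 pools in 1 fit, 110 genes were called in the capsaicin selection and 213 across both selections. At an unadjusted p under 0.05, edgeR had 1150 genes in the capsaicin selection. Leaving out 1 pool at a time gave 0 called genes in the Trpv1 selection and 0 between Trpv1+ and Trpv1- nodose pools, 0 to 29 in the capsaicin selection and 38 to 89 across both selections, with the remaining pool of a group taken to vary like the others. The causes were not tested.

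Of the 10 genes, edgeR called 0 in each comparison. DESeq2 called 1 in each, and 4 in the interaction, where it called 2590 of 13170 genes. Without the filter on low counts 1 was called in the capsaicin selection, 1 across both selections and 1 in the interaction, and with all 10 pools in 1 fit 1 in the capsaicin selection and 1 across both selections, each time Th. Leaving out 1 pool gave 0 to 1 in the capsaicin selection (Th, with an adjusted p of 0.0905 without the first nodose pool, 0.00558 without the first and 0.0145 without the second jugular pool, and 0.108 without the second nodose pool) and 0 to 1 in the interaction. There Th passed without either Trpv1+ jugular or either capsaicin-sensitive nodose pool. Slc18a3, Gch1 and Slc5a7 had DESeq2 adjusted p of 1.255e-11 (Trpv1 selection), 0.0111 and 0.00564 (capsaicin selection) without being called, since they lacked 10 CPM in both pools of a group.

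Same-numbered pools did not deviate together (r of 0.00221, -0.0137 and -0.0126 over genes). This cannot show whether they came from the same mouse, since many genes dropped out of 1 pool of a pair. With the replicate block edgeR called 13, 20, 1 and 41 genes, and of the 10 genes 1 in the capsaicin selection (Th, adjusted p of 0.0548). The block turned the log2 fold change of Gch1 between Trpv1+ and Trpv1- nodose pools to -0.40 and the interaction of Slc18a2 to 2.32.

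Some directions turned when 1 pool was left out. Since edgeR called 0 of the 10 genes, these could only be genes that were not called. The log2 fold change ranged from -0.34 to 0.98 for Th, -1.37 to 1.496 for Gch1, -1.61 to 0.55 for Slc6a2 and -1.80 to 11.62 for Slc5a7 in the Trpv1 selection, and from -0.25 to 1.29 for Maoa in the capsaicin selection. Between Trpv1+ and Trpv1- nodose pools it ranged from -1.83 to 1.04 for Gch1, -2.07 to 0.083 for Slc6a2 and -7.82 to 11.48 for Slc18a3, and for the interaction of Slc18a2 from -2.19 to 8.86. Of the other log2 fold changes of the 10 genes, 455 kept their direction and side of the threshold and 20 became called. Among the settings behind the 455, CPM within the comparison and no CPM threshold reused the main fit, so log2 fold change and adjusted p were fixed there. With plain CPM, 12 of 50 group means moved by more than the spread between pools, and those at 0 could not move. Ratios scaled by total counts were chosen after seeing the data. DESeq2's size factors in edgeR moved the median log2 fold change of all genes from -0.02 to 0.09 in the capsaicin selection and from -0.18 to -0.04 across both selections. The CPM of 3 counts was highest in the capsaicin pools, at up to 0.176 CPM, and covers counting error only.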
